A study of Mus musculus with 88 samples.

Results

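The genes described are 5 members of the mouse neutrophil-attracting chemokine system: the ligands Cxcl1, Cxcl2, Cxcl3 and Cxcl5 and their shared receptor Cxcr2. They were 5 of the 18069 genes that the array's probes named through the platform's symbols, updated by Entrez number. They were picked by gene name, with earlier results of these data known. Each had 1 probe on the array with a value on all 88 arrays, and all 5 lay among the 13465 genes tested after dim genes were left out. The study profiled 4 transplantable mouse tumours after a single irradiation with carbon ions or gamma rays. It used 88 single-colour CodeLink arrays of total RNA, which fell into 44 groups of 2 arrays.

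All groups were tumours grown in the hind legs of C3H/HeNrs mice, and no genetic change to mouse or tumour is named. NR-S1 and SCCVII are labelled as squamous cell carcinomas and NFSa as a fibrosarcoma, all of spontaneous origin in C3H/He mice, and #8520 as a fibrosarcoma that radiation induced. The carbon arm held untreated tumours and tumours taken 6 h, 1 day and 3 days after 30 Gy of carbon ions. The gamma arm held its own untreated tumours and tumours taken at the same times after 30 or 50 Gy of gamma rays. Each tumour is 1 transplanted line, and nothing given tells if a group's 2 arrays hold RNA of separate mice, so the p-values cover only array-to-array spread, which may be technical. Untreated NR-S1 showed the keratin Krt5 at a mean log2 intensity of 8.38, whereas SCCVII was at -1.62, so the carcinoma label of SCCVII was not matched by this defining marker.

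The 4 ligands belong to the CXC chemokines with a glutamate-leucine-arginine motif. They bind CXCR2, a G protein-coupled receptor that neutrophils carry on their surface, and draw neutrophils out of the blood into injured or infected tissue. Cxcl1, Cxcl2 and Cxcl3 are closely related products of gene duplication, made by macrophages, fibroblasts, epithelium and tumour cells when inflammatory cytokines activate NF-κB. Cxcl5, which lies farther off in sequence, is known for its release by epithelium and platelets. In tumours the same ligands are known to bring in neutrophils and myeloid-derived suppressor cells.

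The ligand genes lie in a cluster on mouse chromosome 5, where Cxcl1 and Cxcl2 are adjacent coding genes, Cxcl3 lies between Pf4 and Cxcl15, and Cxcl5 lies next to Ppbp. Cxcr2 lies on chromosome 1 next to Cxcr1. The stretches before the starts of Cxcl1, Cxcl2 and Cxcl3 are shown because these ligands rose together at 6 h. Cxcl5 rose at 6 h too, but the promoter set used had no entry for it. Capitals mark the longest run of letters that all 3 stretches share, GGGAATTTCCC, which has the form of a κB site, the element that NF-κB binds. Each line is 120 bases before the gene start, from RefSeq on build GRCm38.p6, plus strand, at chr5:90891125-90891244 for Cxcl1, chr5:90903779-90903898 for Cxcl2 and chr5:90785981-90786100 for Cxcl3.
Cxcl1: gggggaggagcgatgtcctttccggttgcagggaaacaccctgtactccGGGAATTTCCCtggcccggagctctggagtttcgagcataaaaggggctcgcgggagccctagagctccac
Cxcl2: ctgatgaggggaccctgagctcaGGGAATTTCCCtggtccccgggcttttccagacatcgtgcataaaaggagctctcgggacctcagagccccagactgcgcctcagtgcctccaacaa
Cxcl3: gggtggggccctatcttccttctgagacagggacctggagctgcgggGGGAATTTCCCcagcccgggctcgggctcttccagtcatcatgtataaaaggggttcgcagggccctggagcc
The shared run began 71 bases before the start of Cxcl1, 97 before Cxcl2 and 73 before Cxcl3. Searched on both strands in windows of 300 bases (250 before to 50 after a start), it was in 14 of 32851 promoters, or 0.0426%. The longest other run that the 3 stretches share without overlap with the first, ATAAAAGG, resembles a TATA box and was in 1.76% of promoters. The window of Cxcr2 held neither run. Both runs were taken from these sequences, so their presence in all 3 is a description.

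Log2 intensities are given on the deposited scale, on which 0 is about the median of an array. The array medians ran from 1.02 to 1.07 in intensity, and within groups the correlation between arrays, taken over genes, was 0.990 to 0.998. Over 44 groups the group means spanned 7.10 log2 units for Cxcl1, 7.90 for Cxcl2, 10.6 for Cxcl3 and 9.14 for Cxcl5, but 2.70 for Cxcr2. The median gap between the 2 arrays of a group was 0.13, 0.17, 0.096, 0.065 and 0.17 log2 units in the same order. Cxcr2 was dim: in 21 of 44 groups its mean lay in the range of the 25% of genes left out as dimmest, whose upper limit was -1.30. Cxcl3 and Cxcl5 were that low in 3 groups each, all of SCCVII. On 8 arrays, those of SCCVII and #8520 on day 1 and day 3 after 50 Gy, the dim end of the scale was raised, with a 1st percentile of 0.297 to 0.378 against 0.0128 to 0.134 on the other 80.

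Averaged over both arms, untreated NR-S1 had the highest ligand levels and untreated SCCVII the lowest, with the fibrosarcomas NFSa and #8520 between them. In bulk tumour RNA, here and below, more cells of a type and more RNA per cell cannot be told apart. Cxcl1, the best known mouse neutrophil attractant, read 5.27 and 5.28 (log2) in the carbon-arm arrays of NR-S1 and 6.12 and 5.95 in its gamma-arm arrays. In SCCVII the same gene read 0.41 and 0.41 in the carbon arm and 0.89 and 1.07 in the gamma arm. The levels of the 2 carcinomas did not overlap for any of the 4 ligands. NR-S1 exceeded SCCVII by 4.96 log2 units for Cxcl1, 2.96 for Cxcl2, 7.49 for Cxcl3 and 6.49 for Cxcl5 (SE 0.067 to 0.11, 4 arrays against 4). As in each pair of untreated tumours below, the SE comes from the 2 arrays within each arm and leaves out the gap between arms. Over the 4 untreated arrays the SD of Cxcl3 was 1.01 in SCCVII and 0.42 in NR-S1. All 4 differences were called, here and below meaning an adjusted p under 0.05 in limma, and 71.0% of all genes tested were called in that comparison.

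Cxcl3 and Cxcl5 were the ligands nearest to the dim end in untreated SCCVII. Cxcl3 read -1.51 and -1.48 there in the carbon arm and -2.98 and -3.45 in the gamma arm, against 4.67, 4.90, 5.42 and 5.56 in NR-S1. Cxcl5 read -1.14 and -1.47 in the carbon arm of SCCVII and -2.51 and -2.44 in its gamma arm, against 4.56 to 4.64 in the 4 arrays of NR-S1. Changes of these 2 genes in SCCVII are therefore measured from levels at or below the -1.30 limit in most untreated arrays. Between the fibrosarcomas, NFSa exceeded #8520 by 0.66 log2 units for Cxcl1, 1.42 for Cxcl2, 1.51 for Cxcl3 and 2.0 for Cxcl5, where 53.9% of genes were called. For Cxcl1 and Cxcl2 the gap lay in the gamma arm: the carbon-arm means of NFSa and #8520 were 2.33 and 2.29 for Cxcl1 and 1.16 and 1.09 for Cxcl2, against 4.24 and 2.96 and 3.88 and 1.10 in the gamma arm. The calls leave out this spread between arms: over the 4 untreated NFSa arrays the SD ran from 0.86 for Cxcl5 to 1.57 for Cxcl2. In order of mean level over both arms each neighbour pair of tumours differed for each ligand, except NR-S1 and NFSa for Cxcl2, which differed by 0.20 (adjusted p = 0.11 with limma). Of all genes, 74.3% were called between NR-S1 and NFSa and 59.6% between SCCVII and #8520.

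**Figure D1:**
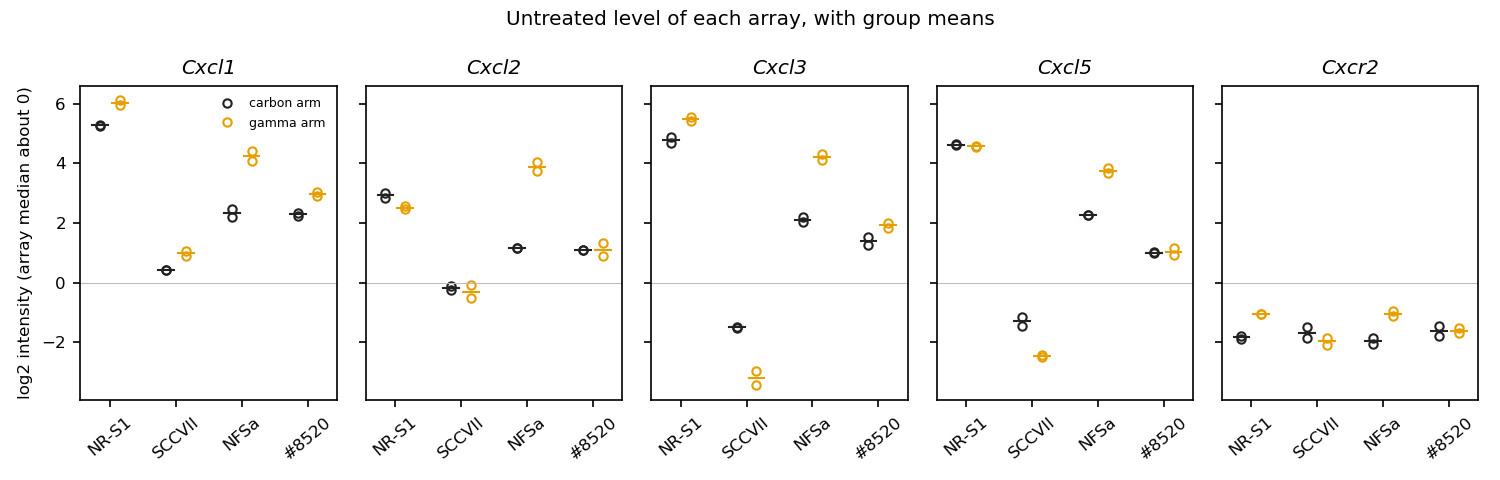
Untreated log2 intensity (y axis, 0 is about the array median) of each gene in the 4 tumours (x axis); circles are single arrays of the carbon arm (black) and gamma arm (orange), and short lines are the means of 2 arrays. Cxcl1, Cxcl3 and Cxcl5 were highest in NR-S1, all 4 ligands were lowest in SCCVII, the gamma-arm arrays of NFSa lay above its carbon-arm arrays for all 5 genes, and Cxcr2 stayed between -2.10 and -0.97.

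The untreated arrays of the 2 arms were not interchangeable, above all in NFSa. Cxcl2, a ligand released early by macrophages and mast cells, read 1.17 and 1.15 in the untreated carbon-arm arrays of NFSa but 3.73 and 4.03 in those of the gamma arm. The gap, carbon minus gamma, was -2.72 for Cxcl2 (SE 0.16), -1.92 for Cxcl1, -2.11 for Cxcl3, -1.49 for Cxcl5 and -0.92 for Cxcr2, and all 5 were called against 49.2% of genes. For each gene the gap was smaller in the other tumours, and gaps there went both ways. They ran from -0.79 to 0.41 in NR-S1, with 4 of 5 called against 49.3% of genes, and from -0.58 to 1.72 in SCCVII, with 3 of 5 called against 46.4%. In #8520 Cxcl1 (-0.67) and Cxcl3 (-0.53) were called, against 35.6% of genes. Why the arms differed was not tested, and each change below is taken against the untreated arrays of the same tumour and arm.

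Carbon ions at 30 Gy raised all 5 genes at 6 h. Averaged over the 4 tumours (8 irradiated against 8 untreated arrays), Cxcl2 rose by 3.59 log2 units or 12-fold (SE 0.080, adjusted p = 2.1e-39 with limma), the 2nd largest rise of 13415 genes. Cxcl3 rose by 2.72 or 6.60-fold (SE 0.062) and Cxcl1 by 2.43 or 5.38-fold (SE 0.067), which placed them 7th and 11th. Cxcl5 rose by 2.12 or 4.35-fold (SE 0.048, 15th) and Cxcr2 by 0.84 or 1.79-fold (SE 0.089, 166th). In that comparison 21.0% of genes were called higher. With each tumour taken as 1 replicate (n = 4), the 4 ligands remained called, at adjusted p = 0.019, 0.0070, 0.016 and 0.042 for Cxcl1, Cxcl2, Cxcl3 and Cxcl5, while Cxcr2 did not, at 0.18.

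Cxcl2 rose at 6 h after carbon ions in every tumour. In SCCVII it went from -0.25 and -0.10 to 3.54 and 3.85, and in NFSa from 1.17 and 1.15 to 5.56 and 5.73. The 2 irradiated arrays thus lay far above the 2 untreated ones, by 14.6-fold in SCCVII and 22.4-fold in NFSa. In #8520 it went from 1.09 and 1.09 to 5.22 and 5.40, an 18.6-fold rise. In NR-S1, which started highest, it went from 2.85 and 3.00 to 4.61 and 4.81, a 3.45-fold rise. After irradiation the 4 tumours lay closer together than before, with 3.54 the lowest array and 5.73 the highest. Against the untreated arrays of both arms the NFSa rise was 3.13 in place of 4.49.

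The levels of Cxcl1 after irradiation remained farther apart than those of Cxcl2, from 2.33 to 6.34. It read 6.01 and 6.00 in NFSa at 6 h, from 2.45 and 2.20, and 5.36 and 5.33 in #8520, from 2.24 and 2.33. These fibrosarcoma rises were 12.8-fold and 8.32-fold. In the carcinomas the rises were 3.95-fold in SCCVII, to 2.33 and 2.45, and 1.99-fold in NR-S1, to 6.19 and 6.34. Irradiated and untreated arrays of the carbon arm, 2 against 2, did not overlap in any of the 4 tumours. How many of all genes showed no overlap was not counted, here or where overlap is described above and below.

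Cxcl3 rose in all 4 tumours and Cxcl5 in 3 of them. The rise of Cxcl3 at 6 h was 1.09 in NR-S1, 3.93 in SCCVII, 3.46 in NFSa and 2.41 in #8520 (SE 0.13). Its arrays in SCCVII went from -1.51 and -1.48 to 2.36 and 2.50. Cxcl5 rose by 2.76 in SCCVII, 2.53 in NFSa and 3.03 in #8520 (SE 0.095). In NR-S1, where untreated arrays were already at 4.64 and 4.61, Cxcl5 read 4.68 and 4.89, a difference of 0.16 that did not pass (adjusted p = 0.21 with limma). Of the 16 ligand comparisons at 6 h this was the only one not called higher, and the shares of all genes called higher were 14.5% in NR-S1, 9.89% in SCCVII, 23.8% in NFSa and 10.2% in #8520.

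On day 1 after carbon ions the ligands parted. Cxcl2 was still 6.76-fold above untreated on average (2.76, SE 0.080, 5th of 13417 genes) and Cxcl3 3.51-fold (1.81), whereas Cxcl5 was at 1.10 and Cxcl1 at 0.41. All 5 genes were called higher, against 25.5% of genes, but with each tumour as 1 replicate none was, at adjusted p = 0.15 for Cxcl2 and 0.25 to 0.49 for the others. SCCVII had the largest ligand rises on day 1: Cxcl2 read 4.76 and 4.79, a rise of 4.95 or 30.9-fold, above its 6 h value. Cxcl3 in SCCVII read 2.56 and 2.64, a rise of 4.10, and Cxcl5 read 1.25 and 1.37, a rise of 2.61. In NFSa, by contrast, Cxcl1 had returned to 2.04 and 2.26, 0.18 below untreated and not called, while Cxcl2 was 1.45 above. Against the untreated arrays of both arms, Cxcl3 and Cxcl5 in NFSa turned from 0.46 and 0.29 to -0.60 and -0.46, and the mean of Cxcl1 from 0.41 to -0.085. Of 16 ligand comparisons on day 1, 13 were called higher and 3 were not called: Cxcl1 in NR-S1 and NFSa and Cxcl5 in NR-S1. The shares of all genes called higher were 18.7%, 17.8%, 9.10% and 30.4% in NR-S1, SCCVII, NFSa and #8520.

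By day 3 the pattern among tumours had changed again. The mean rises were 1.28 for Cxcl2, 1.26 for Cxcl5, 0.93 for Cxcl1 and 0.56 for Cxcl3, all called higher against 26.4% of genes, and Cxcr2 was at 0.17 (adjusted p = 0.094 with limma). With each tumour as 1 replicate Cxcl2 alone of these kept its call, at adjusted p = 0.042, and the others were at 0.091 to 0.42. In NFSa Cxcl1 read 4.28 and 4.27 on day 3 after 2.04 and 2.26 on day 1, and Cxcl5 read 5.07 and 5.06 after 2.54 and 2.56, whereas Cxcl2 read 2.39 and 2.46 after 2.60 and 2.63. These differences between day 3 and day 1 were not tested. The day 3 rise of Cxcl5 in NFSa was 2.80, or 6.96-fold, the largest ligand value at that time. In NR-S1 Cxcl2 read 5.29 and 5.12, a rise of 2.28 that exceeded its 6 h rise by 0.49. In SCCVII Cxcl2 was down to 0.08 and 0.34, while Cxcl1, at 1.60 and 1.70, was still 1.24 above untreated. In #8520 Cxcl3 read 0.28 and 0.22, which was 1.13 below untreated and the single ligand value called lower among 16. Of the others 12 were called higher, where 20.9%, 23.5%, 19.3% and 19.1% of all genes were in NR-S1, SCCVII, NFSa and #8520, and 31.1% were called lower in #8520.

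**Figure D2:**
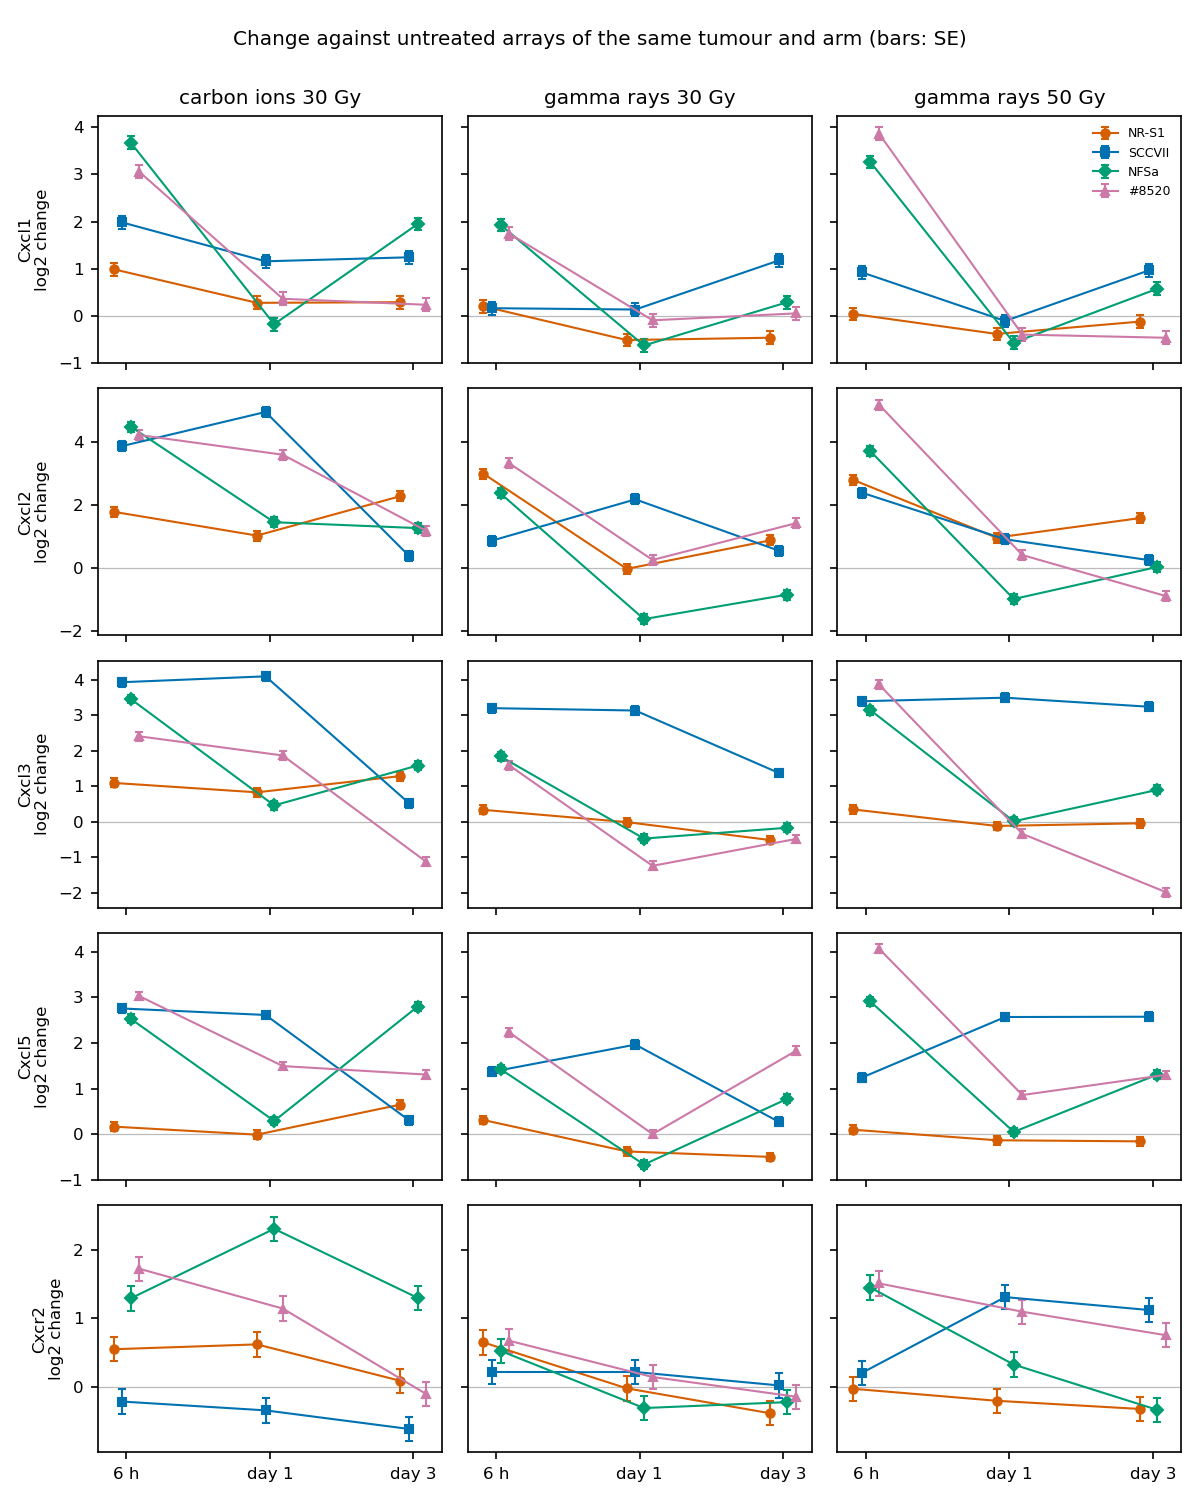
Log2 change against the untreated arrays of the same tumour and arm (y axis; own scale for each gene in rows) at 6 h, day 1 and day 3 (x axis) after carbon ions at 30 Gy, gamma rays at 30 Gy and gamma rays at 50 Gy (columns); each point is 2 arrays against 2, bars are SE, and colours are tumours. At 6 h after carbon ions the ligands of NFSa, #8520 and SCCVII lay well above 0, and NR-S1 changed least in each ligand. SCCVII alone held Cxcl2, Cxcl3 and Cxcl5 at 1.96 or more on day 1 after gamma rays at 30 Gy.

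Gamma rays at 30 Gy also raised all 5 genes at 6 h, by less. The mean rises were 2.39 for Cxcl2 (5.24-fold, SE 0.080, 4th of 13434 genes), 1.74 for Cxcl3, 1.33 for Cxcl5, 1.01 for Cxcl1 and 0.52 for Cxcr2, where 19.3% of genes were called higher. With each tumour as 1 replicate none of them was called (adjusted p = 0.12 to 0.30). NR-S1 showed an uneven response: Cxcl2 went from 2.55 and 2.47 to 5.54 and 5.48, a 7.97-fold rise, while Cxcl1 moved from 6.12 and 5.95 to 6.21 and 6.26, a difference of 0.20 that did not pass. In SCCVII Cxcl3 changed more than Cxcl2, with Cxcl3 rising 9.19-fold, from -2.98 and -3.45 to -0.09 and 0.06, and Cxcl2 rising 1.82-fold. In #8520 all 4 ligands rose, Cxcl2 from 0.88 and 1.33 to 4.44 and 4.42. At 6 h 13 of 16 ligand comparisons were called higher and none lower, where the shares of all genes called higher were 11.1% in NR-S1, 9.21% in SCCVII, 9.21% in NFSa and 16.5% in #8520.

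On days 1 and 3 after 30 Gy of gamma rays the ligands no longer moved one way. On day 1 the means lay between -0.27 (Cxcl1) and 0.35 (Cxcl3), with 3 of 5 genes called higher and Cxcl1 lower, where 21.2% of genes were higher and 21.7% lower. The call of Cxcl2 (0.20, adjusted p = 0.043 with limma) was lost when any 1 of 8 arrays was left out, with the value then between 0.14 and 0.25. By tumour, the 3 ligand values called higher on day 1 were all of SCCVII: Cxcl2 at 2.18, Cxcl3 at 3.13 and Cxcl5 at 1.96. The 7 called lower were all 4 ligands in NFSa, Cxcl1 and Cxcl5 in NR-S1, and Cxcl3 in #8520. Of all genes 14.0% were called higher in SCCVII, and 8.97%, 12.6% and 27.2% lower in NFSa, NR-S1 and #8520. The NFSa values are taken against the higher untreated level of that arm: Cxcl2 read 2.42 and 2.09 on day 1, below the 3.73 and 4.03 of untreated gamma-arm arrays but above the 1.17 and 1.15 of untreated carbon-arm arrays. Against the untreated arrays of both arms, Cxcl1, Cxcl3 and Cxcl5 in NFSa were at 0.33, 0.58 and 0.076 on day 1 in place of -0.63, -0.48 and -0.67. The mean of Cxcl1 on day 1 likewise turned from -0.27 to 0.22.

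On day 3 after 30 Gy of gamma rays Cxcl5 (0.59), Cxcl2 (0.50) and Cxcl1 (0.26) were called higher on average, where 23.1% of genes were, and Cxcl3 (0.05) and Cxcr2 (-0.18) were not called. Across tumours 8 of 16 ligand values were called higher and 5 lower, where the share of all genes called in either direction was 37.0% in NR-S1, 27.9% in SCCVII, 31.0% in NFSa and 49.8% in #8520. Cxcl5 in #8520, at 2.93 and 2.79 from 0.92 and 1.15, had the largest of these rises, 1.83. With each tumour as 1 replicate no member was called on either day after 30 Gy of gamma rays (adjusted p = 0.38 or higher).

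Gamma rays at 50 Gy gave 6 h means close to those after carbon ions at 30 Gy, though the 2 groups differ in dose and in untreated arrays. Cxcl2 rose by 3.52 (11.5-fold, SE 0.080), Cxcl3 by 2.69, Cxcl5 by 2.08, Cxcl1 by 2.02 and Cxcr2 by 0.78, where 22.8% of genes were called higher. Taking each tumour as 1 replicate left none called (adjusted p = 0.13 to 0.37). The largest rises of Cxcl1 and Cxcl2 among the 36 irradiated groups were here: in #8520 Cxcl2 rose 36.3-fold, from 0.88 and 1.33 to 6.24 and 6.32, and Cxcl1 rose 14.6-fold, from 2.89 and 3.03 to 6.90 and 6.76. Cxcl5 in #8520 rose 16.8-fold, to 5.10 and 5.11. In NR-S1 Cxcl2 rose 6.95-fold but Cxcl1 (0.04) and Cxcl5 (0.10) did not pass. Of 16 ligand comparisons 14 were called higher, where 26.6%, 22.9%, 25.4% and 57.6% of genes were called in either direction in NR-S1, SCCVII, NFSa and #8520.

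The dose difference, 50 minus 30 Gy of gamma rays, was positive at 6 h for each of the 5 genes: 1.13 for Cxcl2 (SE 0.080), 1.01 for Cxcl1, 0.95 for Cxcl3, 0.75 for Cxcl5 and 0.27 for Cxcr2. All were called higher, against 10.9% of genes, and none with each tumour as 1 replicate (adjusted p = 0.56 to 0.80). All 4 ligands differed in both fibrosarcomas, by 1.84 to 2.28 in #8520 and 1.31 to 1.49 in NFSa, all called against 14.0% and 7.52% of genes called higher. In SCCVII Cxcl2 (1.52) and Cxcl1 (0.76) were higher after the larger dose, where 4.99% of genes were. In NR-S1, where 8.09% of genes were called in either direction, no ligand was: the values ran from -0.21 to 0.01, with a 95% confidence interval of -0.52 to 0.12 for Cxcl2.

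On day 1 and day 3 after 50 Gy the raised dim end of the SCCVII and #8520 arrays moves with the values. The median of all genes tested was -0.22 in SCCVII on both days, -0.17 in #8520 on day 1 and -0.10 on day 3. On day 1 the mean was -0.36 for Cxcl1 and between 0.33 and 0.83 for the other 4 genes, with 4 of 5 called higher against 23.1% of genes and Cxcl1 lower against 45.1%. Without those arrays the mean covers NR-S1 and NFSa alone, so the tumours change along with the arrays. Cxcl2, Cxcl3 and Cxcl5 were then at -0.0097, -0.056 and -0.044 and were not called. On day 3 all 5 genes were called higher, against 28.7% of genes, led by Cxcl5 at 1.25. With each tumour as 1 replicate no member was called on either day (adjusted p = 0.15 or higher). Cxcl3 in SCCVII read 0.25 and 0.31 on day 1 and 0.09 and -0.04 on day 3, from -2.98 and -3.45, and Cxcl5 rose there by 2.57 and 2.58, where 18.3% and 21.7% of genes were called higher. What part the raised dim end has in these SCCVII values was not tested. In #8520 Cxcl3 had fallen by 1.99 on day 3, to -0.10 and -0.04, and Cxcl2 had fallen by 0.89, where 39.9% of genes were called lower. The dose difference of Cxcl2 on day 3 was -0.26 over all tumours and 0.79 over NR-S1 and NFSa alone. Such values cannot tell the raised dim end apart from the tumours left out.

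The fall after 6 h was tested within each beam. After carbon ions Cxcl1 was 2.02 lower on day 1 than at 6 h, the 2nd largest fall of 13419 genes, and Cxcl5 was 1.02, Cxcl3 0.91 and Cxcl2 0.83 lower, where 11.8% of genes were called lower. Cxcl2 and Cxcl3 dropped later: from 6 h to day 3 they fell by 2.31 and 2.16, the largest and 2nd largest falls of 13417 genes, of which 41.1% were called lower. After gamma rays at 30 Gy Cxcl2 had fallen by 2.19 on day 1, the largest fall of 13448 genes, with Cxcl3 at -1.39 and Cxcl1 at -1.29 and 15.8% of genes called lower. SCCVII went the other way: from 6 h to day 1 its Cxcl2 rose by a further 1.08 after carbon ions and 1.31 after gamma rays, where 15.2% and 8.73% of genes were called higher. Taking each tumour as 1 replicate, no member kept a call in these 3 time comparisons (adjusted p = 0.077 or higher).

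The beam difference at 30 Gy, the change after carbon ions minus the change after gamma rays, was positive for the 4 ligands at all 3 times. At 6 h it was 1.42 for Cxcl1 (SE 0.095, 5th of 13384 genes), 1.20 for Cxcl2, 0.98 for Cxcl3 and 0.79 for Cxcl5, all called higher against 9.28% of genes, and 0.32 for Cxcr2 (95% confidence interval 0.068 to 0.58, not called). On day 1 Cxcl2 stood out at 2.56 (5.90-fold, SE 0.11), the 2nd largest of 13379 genes, with Cxcl3 at 1.46, Cxcr2 at 0.93, Cxcl5 at 0.87 and Cxcl1 at 0.68, all called higher against 17.1%. On day 3 the 5 values ran from 0.35 (Cxcr2) to 0.78 (Cxcl2), all called higher against 15.8%, though no member was called higher in SCCVII or #8520 by itself. Cxcl1 did not keep its sign on days 1 and 3 in the irradiated arrays alone, where its means were 0.43 at 6 h, -0.30 on day 1 and -0.32 on day 3, whereas those of Cxcl2 were 0.65, 2.01 and 0.23. With each tumour as 1 replicate no gene of the table was called at any of the 3 times, and the members' adjusted p-values were 0.28 or higher. At an unadjusted p under 0.05, limma then counted 719 genes at 6 h, 876 on day 1 and 1526 on day 3.

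The NFSa part of that difference changed sign with the choice of untreated arrays. At 6 h the irradiated arrays of NFSa lay lower after carbon ions than after gamma rays for Cxcl1 and Cxcl2: Cxcl1 read 6.01 and 6.00 against 6.27 and 6.07, and Cxcl2 read 5.56 and 5.73 against 6.11 and 6.38. Against own-arm untreated arrays the NFSa beam differences were 1.75 for Cxcl1, 2.12 for Cxcl2, 1.62 for Cxcl3 and 1.10 for Cxcl5. With the untreated arrays of both arms as reference, so that only irradiated arrays are compared, they were -0.17, -0.60, -0.48 and -0.38. Leaving NFSa out was chosen after the data were seen. The 6 h means over the other 3 tumours were then 1.31 for Cxcl1, 0.89 for Cxcl2, 0.77 for Cxcl3 and 0.68 for Cxcl5, all still called. Those means still rest on own-arm untreated arrays, and the share of all genes called is not given here. On day 3 without NFSa, Cxcl3 fell to 0.10 and Cxcr2 to -0.04, neither called.

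**Figure D3:**
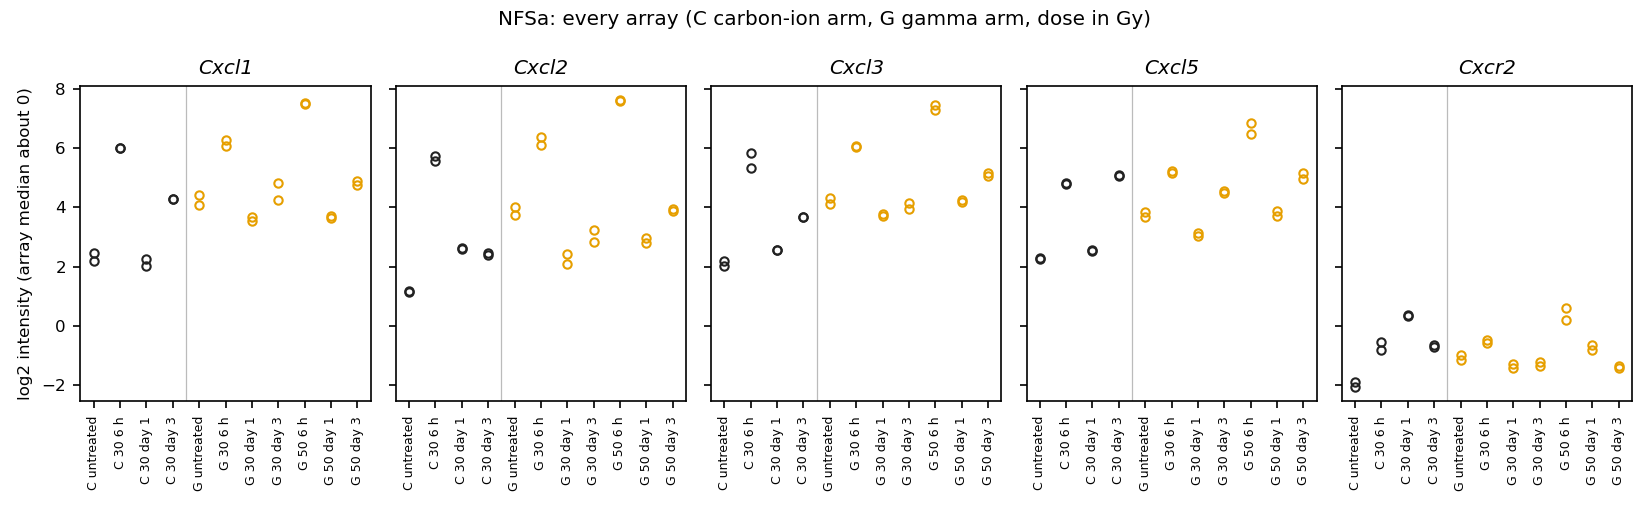
Log2 intensity (y axis) of each gene on every NFSa array by group (x axis; C carbon arm, G gamma arm, dose in Gy); each circle is 1 array and the vertical line divides the arms. The untreated gamma-arm arrays of Cxcl2 (3.73 and 4.03) lay above those of the carbon arm (1.17 and 1.15), while the 6 h arrays of both arms at 30 Gy lay between 5.56 and 6.38.

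Cxcl2 on day 1 was higher after carbon ions in the irradiated arrays of each tumour. In SCCVII Cxcl2 read 4.76 and 4.79 on day 1 after carbon ions against 1.98 and 1.76 after gamma rays. In #8520 it read 4.73 and 4.64 against 1.19 and 1.52. In NR-S1 it read 4.21 and 3.70 against 2.40 and 2.57, and in NFSa 2.60 and 2.63 against 2.42 and 2.09. The carbon-arm arrays were higher in all 4 tumours with no overlap, narrowly so in NFSa. How many of all genes showed this was not counted. Untreated arrays of the 2 arms differed too, with 35.6% to 49.3% of genes called by tumour. Against own-arm untreated arrays the differences were 1.06 in NR-S1, 2.77 in SCCVII, 3.07 in NFSa and 3.34 in #8520, all called, where 12.3%, 7.88%, 7.85% and 27.3% of genes were called higher. From the irradiated arrays alone they were 1.47, 2.91, 0.35 (not called) and 3.33.

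Other beam differences depended on tumour or reference. In NR-S1 Cxcl2 at 6 h was lower after carbon ions than after gamma rays, at -1.21 (SE 0.23), where 7.63% of genes were called lower. SCCVII had the largest 6 h difference in Cxcl2, 3.00, with 3.54 and 3.85 after carbon ions against 0.68 and 0.43 after gamma rays. For Cxcl1 in NR-S1 the differences of 0.79, 0.79 and 0.75 at 6 h, day 1 and day 3 came to 0.03, 0.03 and -0.0072 in the irradiated arrays alone. On day 3 #8520 had beam differences of -0.64 for Cxcl3 and -0.52 for Cxcl5, where 2.51% of genes were called lower. In SCCVII Cxcl3 was the only member called on day 3, lower against own-arm untreated arrays. The share of all genes called there is not given here. Its irradiated arrays went the other way, at -0.97 and -0.98 after carbon ions against -1.85 and -1.83 after gamma rays.

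**Figure D4:**
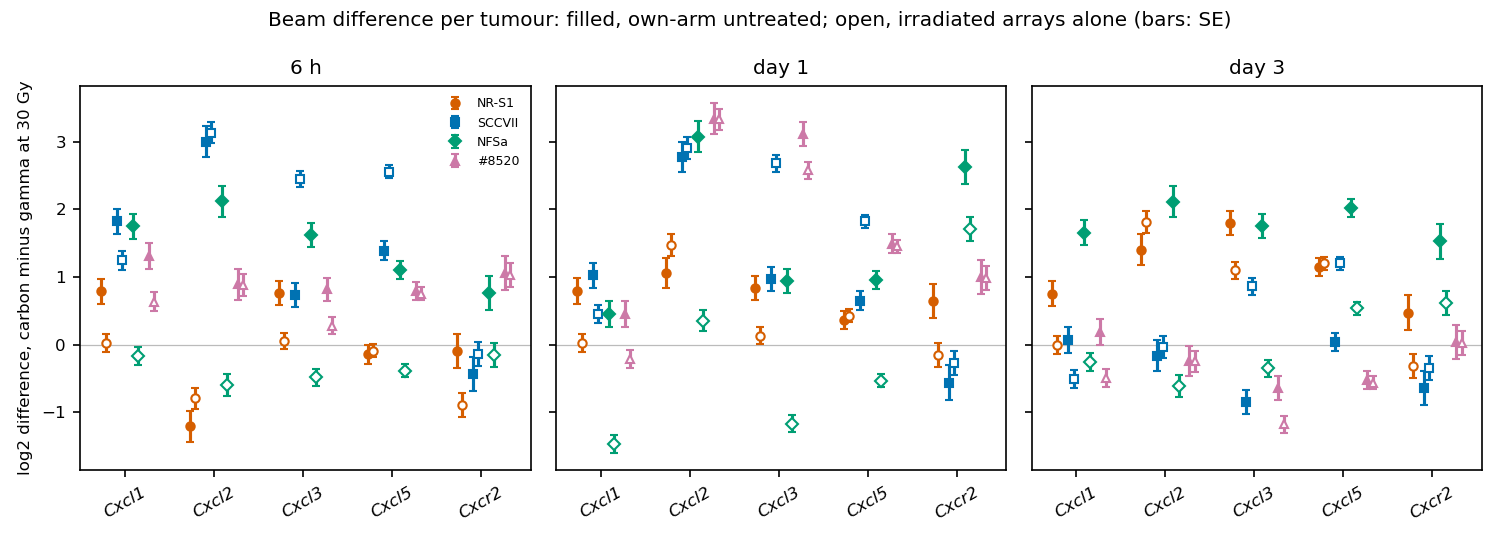
Beam difference at 30 Gy per tumour, carbon minus gamma in log2 units (y axis), for each gene (x axis) at 6 h, day 1 and day 3 (panels); filled marks use the untreated arrays of each arm, open marks the irradiated arrays alone, and bars are SE. The filled NFSa marks for the ligands at 6 h (1.10 to 2.12) had open counterparts below 0 (-0.60 to -0.17), while Cxcl2 on day 1 lay above 0 on both readings in all 4 tumours.

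An F test asked whether the change differed among the 4 tumours. For the 4 ligands it passed at each time after each beam at 30 Gy, in 24 of 24 tests, where 36.9% to 61.9% of genes passed. After carbon ions the values for Cxcl1, Cxcl2, Cxcl3 and Cxcl5 were 77.7, 58.8, 102.2 and 193 at 6 h against 45.0% of genes, and 17.0, 132, 172 and 160 on day 1 against 58.3%. On day 3 they were 37.3, 23.5, 95.2 and 135 against 61.9%. After gamma rays at 30 Gy they were 50.8, 46.2, 88.9 and 68.9 at 6 h against 36.9% of genes, 7.04, 94.5, 238 and 156 on day 1 against 52.4%, and 25.9, 36.3, 51.8 and 105 on day 3 against 56.0%. Cxcr2 passed after carbon ions at all 3 times (22.9, 38.3 and 20.7) but not after gamma rays (1.38, 1.71 and 0.90).

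Cxcr2, the receptor, was low in every untreated tumour, and at 6 h and on day 1 after carbon ions it rose most in the fibrosarcomas. Untreated arrays ran from -2.10 to -0.97 over the 4 tumours, and the tumours lay close together. NR-S1 minus SCCVII was 0.39 log2 units and SCCVII minus NFSa -0.32, both called where 71.0% and 62.8% of genes were, and no other pair was called. Leaving out the second untreated carbon-arm array of SCCVII ended both calls, at 0.30 and -0.23, and quantile normalization ended the first, at 0.22. In NFSa Cxcr2 peaked on day 1 after carbon ions, at 0.33 and 0.36 from -1.88 and -2.05, a rise of 2.31 or 4.96-fold. The ligands of NFSa were lower on day 1 than at 6 h, so receptor and ligands had their highest carbon values at different times there. In #8520 Cxcr2 rose by 1.73 at 6 h, to 0.17 and 0.02, and by 1.14 on day 1. In SCCVII it was not called higher after 30 Gy of either beam. Its values at 6 h and on day 1 were 0.22 and 0.22 after gamma rays and -0.22 and -0.34 after carbon ions. On day 3 after carbon ions it was 0.62 lower, at -1.95 and -2.65, where 15.6% of genes were called lower. In NR-S1 it rose by 0.55 at 6 h and 0.62 on day 1 after carbon ions and by 0.65 at 6 h after 30 Gy of gamma rays. The day 1 arrays read -1.68 and -0.75, from -1.79 and -1.88 untreated, so 1 of them lay near the untreated level.

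The Cxcr2 values after 50 Gy on days 1 and 3 rest on the arrays with the raised dim end. In SCCVII they were 1.31 and 1.12 and in #8520 1.10 and 0.75, with mean values of 0.63 on day 1 and 0.30 on day 3. After quantile normalization the day 3 values were -0.26 in SCCVII and -0.18 in #8520, and the mean was -0.27. Over NR-S1 and NFSa alone, which have none of those arrays, the mean was 0.060 on day 1 and -0.33 on day 3.

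A wider list of 41 genes around the receptor held related chemokines, receptors, inducing cytokines, NF-κB regulators, adhesion molecules and signalling proteins, of which 32 were tested. After carbon ions 17 were called higher and 4 lower at 6 h (median 0.16 against -0.013 over all genes), 12 and 5 on day 1, and 21 and 4 on day 3 (median 0.37 against -0.079). Of all genes 21.0%, 25.5% and 26.4% were called higher and 19.5%, 16.6% and 41.8% lower at these times. Il1b, the interleukin that induces these chemokines, rose by 2.35 at 6 h, 1.30 on day 1 and 1.03 on day 3 after carbon ions, and by 1.33 at 6 h after gamma rays at 30 Gy before it was 0.53 lower on day 1. Il6, an inflammatory cytokine, rose by 2.08 at 6 h and was at 0.16 on day 1 and 0.64 on day 3. Ppbp, the platelet chemokine that also binds Cxcr2, rose by 1.06, 1.58 and 0.56 at the 3 times.

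The remaining named genes of that list moved later or less. Csf2, a growth factor for granulocytes and macrophages, rose by 0.85 at 6 h and 1.21 on day 3. Rac2, a GTPase of blood cells, and Prex1, an exchange factor for it, rose on day 3 (1.51 and 1.09) but at 6 h Rac2 was at 0.03 and Prex1 was 0.19 lower. Csf3, which drives neutrophil production, rose by 0.19 at 6 h. Of the NF-κB regulators, Nfkbia rose by 0.39 at 6 h, while Nfkbiz, a co-factor of secondary inflammatory genes, was at 0.12 and not called. Tnf, Il1a, Il17a and Cxcr1 were on the array but among the dim genes left out.

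Markers of neutrophils, the cells that Cxcr2 ligands attract, were higher at the same times. Of 25 listed genes 16 were tested, and after carbon ions 14 were called higher and none lower at 6 h (median 0.97), 12 and 1 on day 1 (median 1.08) and 16 and 0 on day 3 (median 1.07), where 21.0%, 25.5% and 26.4% of all genes were called higher. S100a9 and S100a8, the subunits of calprotectin, rose by 3.26 and 3.02 at 6 h and by 3.15 and 3.11 on day 1. Retnlg rose by 3.12 at 6 h, the collagenase Mmp8 by 2.45, the histamine-forming enzyme Hdc by 2.28 and the decoy receptor Il1r2 by 1.88. After 30 Gy of gamma rays 12 were called higher and 2 lower at 6 h and 4 higher and 5 lower on day 1 (median 0.033), where 19.3% and 18.4% of all genes were called higher and lower at 6 h and 21.2% and 21.7% on day 1.

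Bright markers such as S100a9 and S100a8 weigh most in the summed linear intensity of the 20 neutrophil markers on the array. That sum was set beside the ligands in some of the groups. In NFSa it was 67.6 in untreated carbon-arm tumours and 203 in untreated gamma-arm tumours, and 452 and 528 at 6 h after 30 Gy of carbon ions and gamma rays. In carbon-arm SCCVII it was 48.4 untreated and 110 at 6 h and 148 on day 1, when Cxcl2 had risen 30.9-fold. These sums were the lowest of the 4 tumours at each of these times, untreated included. In NFSa it was also 357 on day 1 after carbon ions, when Cxcl1 was not above untreated, and 433 on day 1 after 50 Gy of gamma rays, when Cxcl1 and Cxcl2 had fallen by 0.57 and 0.98. In #8520 it went from 366 at 6 h to 467 on day 1 after carbon ions, while all 4 ligands read lower on day 1. Other groups moved together. In gamma-arm NR-S1 the sum was 111 untreated, 305 at 6 h and 104 on day 1 after 30 Gy, with Cxcl2 means of 2.51, 5.51 and 2.48. In gamma-arm #8520 the sum rose from 61.9 to 611 at 6 h after 50 Gy, with Cxcl2 from 1.10 to 6.28. In NR-S1 it reached 692 on day 3 after carbon ions, from 142, with the sums of macrophage markers at 577 from 146, of T and NK cell markers at 55.4 from 7.45 and of muscle markers at 1157 from 565. Among the listed neutrophil markers Mpo and Elane, at mean log2 levels of -2.54 and -2.12, were too dim to be tested. Markers of skeletal muscle, the tissue of the hind leg, also moved: 7 of 8 tested were called higher at 6 h after carbon ions (median 0.38) and 7 of 8 after gamma rays at 30 Gy (median 0.99), where 21.0% and 19.3% of all genes were called higher. Their sums differed in direction between tumours: at 6 h they went from 628 to 332 in gamma-arm NR-S1 and from 393 to 350 in carbon-arm SCCVII, but from 29.1 to 251 in gamma-arm SCCVII. The part of neutrophil, macrophage, T and NK cell or muscle RNA in the chemokine values was not tested.

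The likeness of each gene's pattern was measured by Pearson's r over the 44 group means, after the mean of each tumour was removed, against 13346 genes; groups share untreated arrays and tumours, so the values are descriptive. Cxcl2 was closest to Il1b (0.914), then Cxcl3 (0.879), Il1r2 (0.877), S100a8 (0.863) and G0s2 (0.856). Cxcl3 was closest to Il1b (0.886), Ptx3 (0.884) and Cxcl2, and Cxcl5 to Cxcl3 (0.858), Mrgpra2b (0.856) and Il1b (0.825). Cxcl1 had other neighbours: Il6 (0.883), Rab44 (0.842), Rgs1 (0.817), Ier3 (0.811) and Socs3 (0.806). Its values were 0.757 with Cxcl2, 0.770 with Cxcl3 and 0.748 with Cxcl5. Cxcr2 was closest to Arg2 (0.735) and U90926 (0.718), and its values with the 4 ligands ran from 0.401 to 0.431.

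**Figure D5:**
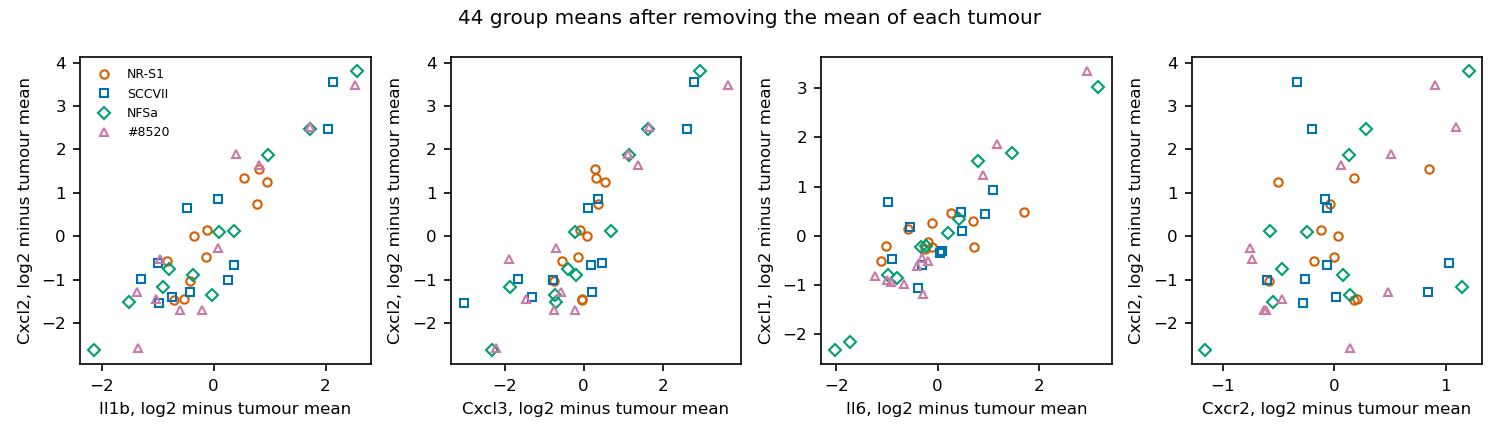
Group means in log2 units after the mean of each tumour was removed: Cxcl2 (y axis) against Il1b, Cxcl3 and Cxcr2, and Cxcl1 (y axis) against Il6; each of 44 marks is the mean of 2 arrays and colours are tumours. The marks follow a line for Il1b (r 0.914), Cxcl3 (0.879) and Il6 (0.883) and are scattered for Cxcr2 (0.401).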

How the data were processed

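Total RNA of 88 tumour samples was read on single-colour CodeLink arrays. Per the files, the deposited values are linear intensity per probe, scaled so that each array's median is about 1. How they were scaled and corrected for background is not given in the sources used here. Intensity at or below 0 (0.150% of values) was treated as missing; the rest was put on the log2 scale without renormalizing. Of 36227 probes 21615 carried 1 gene symbol, and the probe with the highest mean stood for its gene. Genes in the lowest 25% by mean log2, or with values on under 80% of arrays, were left out, which left 13465 of 18069.

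A model with 1 mean per group of 2 arrays was fitted with limma 3.58.1 in R 4.3.3, with moderated variances over all 88 arrays. P-values are two-sided with Benjamini-Hochberg adjustment over all genes tested, at a threshold of 0.05. Mean changes are averages over the 4 tumours, and an F test over 3 contrasts compared tumours. The number of arrays limits the precision. The members and lists were chosen with earlier results of these data known. Named beyond the 5 genes were up to 6 called genes each of the receptor and neutrophil lists with the largest mean change after carbon ions, Il1b, Tnf, Csf3, Nfkbia, Nfkbiz, S100a8 and S100a9 always, and the 5 genes most like each member; Krt5, Mpo, Elane, Il1a, Il17a and Cxcr1 were named after their values were seen. Same-numbered samples were checked for pairing: the deviations of 68 pairs correlated at -0.200 to 0.438 (median 0.0216), 18 of them over 0.1, so the numbers were not used as a block. Alternatives tried were quantile normalization, median centring, an offset before the log, other filters on dim genes, the mean of all probes, a robust prior with an intensity trend, a fit on only the arrays compared, the untreated arrays of both arms, each tumour as 1 replicate, the replicate number as a block, and each array left out. The fit was tested on simulated data.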

Additional observations from a re-analysis of the deposited data

Results flagged for a closer look

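The change after 30 Gy differed among the 4 tumours in 27 of 30 F tests of the 5 genes, each a test of the difference itself (limma, adjusted p under 0.05), where 36.9% to 61.9% of all genes passed. For Cxcl1 the F values at 6 h, day 1 and day 3 were 77.7, 17.0 and 37.3 after carbon ions and 50.8, 7.04 and 25.9 after gamma rays. For Cxcl2 they were 58.8, 132 and 23.5 after carbon ions and 46.2, 94.5 and 36.3 after gamma rays. For Cxcl3 they were 102.2, 172 and 95.2 after carbon ions and 88.9, 238 and 51.8 after gamma rays. For Cxcl5 they were 193, 160 and 135 after carbon ions and 68.9, 156 and 105 after gamma rays. For Cxcr2 they were 22.9, 38.3 and 20.7 after carbon ions. The largest, Cxcl3 on day 1 after gamma rays, came with a rise of 3.13 log2 units in SCCVII against -0.01, -0.48 and -1.25 in NR-S1, NFSa and #8520.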

How the results depend on the processing

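Alternatives were compared with the calls of limma, adjusted by Benjamini-Hochberg. With each tumour as 1 replicate (n = 4) these values kept their size and lost their call. For carbon ions 6 h they were Cxcr2 0.84 and for carbon ions day 1 Cxcl1 0.41, Cxcl2 2.76, Cxcl3 1.81, Cxcl5 1.10 and Cxcr2 0.93. For carbon ions day 3 they were Cxcl1 0.93, Cxcl3 0.56 and Cxcl5 1.26 and for 30 Gy of gamma rays 6 h Cxcl1 1.01, Cxcl2 2.39, Cxcl3 1.74, Cxcl5 1.33 and Cxcr2 0.52. For 30 Gy of gamma rays day 1 they were Cxcl1 -0.27, Cxcl2 0.20, Cxcl3 0.35 and Cxcl5 0.23 and for 30 Gy of gamma rays day 3 Cxcl1 0.26, Cxcl2 0.50 and Cxcl5 0.59. For 50 Gy of gamma rays 6 h they were Cxcl1 2.02, Cxcl2 3.52, Cxcl3 2.69, Cxcl5 2.08 and Cxcr2 0.78 and for 50 Gy of gamma rays day 1 Cxcl1 -0.36, Cxcl2 0.33, Cxcl3 0.76, Cxcl5 0.83 and Cxcr2 0.63. For 50 Gy of gamma rays day 3 they were Cxcl1 0.24, Cxcl2 0.24, Cxcl3 0.53, Cxcl5 1.25 and Cxcr2 0.30 and for the beam difference 6 h Cxcl1 1.42, Cxcl2 1.20, Cxcl3 0.98 and Cxcl5 0.79. For the beam difference day 1 they were Cxcl1 0.68, Cxcl2 2.56, Cxcl3 1.46, Cxcl5 0.87 and Cxcr2 0.93 and for the beam difference day 3 Cxcl1 0.66, Cxcl2 0.78, Cxcl3 0.52, Cxcl5 0.67 and Cxcr2 0.35. For the dose difference 6 h they were Cxcl1 1.01, Cxcl2 1.13, Cxcl3 0.95, Cxcl5 0.75 and Cxcr2 0.27 and for the dose difference day 1 Cxcl3 0.41, Cxcl5 0.61 and Cxcr2 0.63. For the dose difference day 3 they were Cxcl2 -0.26, Cxcl3 0.48, Cxcl5 0.66 and Cxcr2 0.49 and for day 1 minus 6 h after carbon ions Cxcl1 -2.02, Cxcl2 -0.83, Cxcl3 -0.91 and Cxcl5 -1.02. For day 3 minus 6 h after carbon ions they were Cxcl1 -1.5, Cxcl2 -2.31, Cxcl3 -2.16, Cxcl5 -0.86 and Cxcr2 -0.67 and for day 1 minus 6 h after 30 Gy of gamma rays Cxcl1 -1.29, Cxcl2 -2.19, Cxcl3 -1.39, Cxcl5 -1.11 and Cxcr2 -0.51. For day 3 minus 6 h after 30 Gy of gamma rays they were Cxcl1 -0.75, Cxcl2 -1.89, Cxcl3 -1.69, Cxcl5 -0.74 and Cxcr2 -0.70. The number of genes called was then 389 for carbon ions 6 h, 26 for carbon ions day 1, 1698 for carbon ions day 3, 11 for 30 Gy of gamma rays 6 h, 7 for 30 Gy of gamma rays day 1, 63 for 30 Gy of gamma rays day 3, 4 for 50 Gy of gamma rays 6 h, 3 for 50 Gy of gamma rays day 1, 5 for 50 Gy of gamma rays day 3, 0 for the beam difference 6 h, 0 for the beam difference day 1, 0 for the beam difference day 3, 0 for the dose difference 6 h, 0 for the dose difference day 1, 0 for the dose difference day 3, 13 for day 1 minus 6 h after carbon ions, 439 for day 3 minus 6 h after carbon ions, 0 for day 1 minus 6 h after 30 Gy of gamma rays and 4 for day 3 minus 6 h after 30 Gy of gamma rays.

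Without the 8 arrays with a raised dim end, the means covered NR-S1 and NFSa alone, so SCCVII and #8520 dropped out with them. Values that then changed call or sign were Cxcl2 -0.0097, Cxcl3 -0.056, Cxcl5 -0.044 and Cxcr2 0.060 (50 Gy of gamma rays day 1), Cxcr2 -0.33 (50 Gy of gamma rays day 3), Cxcl2 0.81, Cxcl3 0.19 and Cxcr2 0.23 (the dose difference day 1), Cxcl1 0.31, Cxcl2 0.79 and Cxcr2 -0.025 (the dose difference day 3). The number of genes called was then 3934 (50 Gy of gamma rays day 1), 6210 (50 Gy of gamma rays day 3), 606 (the dose difference day 1) and 1388 (the dose difference day 3). After quantile normalization they were Cxcl2 0.17 (30 Gy of gamma rays day 1), Cxcr2 0.23 (50 Gy of gamma rays day 1), Cxcr2 -0.27 (50 Gy of gamma rays day 3), Cxcr2 0.37 (the beam difference day 3), Cxcr2 0.23 (the dose difference 6 h), Cxcl2 0.30 (the dose difference day 1), Cxcl1 0.19 and Cxcr2 -0.071 (the dose difference day 3), Cxcr2 0.22 (untreated NR-S1 minus SCCVII), Cxcr2 -0.42 (untreated SCCVII minus #8520). Single-tumour values that changed sign after quantile normalization were Cxcl1 0.051 and Cxcl3 0.083 (#8520 50 Gy of gamma rays day 1), Cxcr2 -0.26 (SCCVII 50 Gy of gamma rays day 3), Cxcr2 -0.18 (#8520 50 Gy of gamma rays day 3), Cxcl1 0.050 (#8520 dose difference day 1), Cxcr2 -0.21 (SCCVII dose difference day 3), Cxcr2 -0.032 (#8520 dose difference day 3). With only the arrays compared in the fit they were Cxcl2 0.20 (30 Gy of gamma rays day 1), Cxcr2 -0.18 (30 Gy of gamma rays day 3). With no filter on dim genes they were Cxcl2 0.20 (30 Gy of gamma rays day 1). The number of genes called was then 12085 (the dose difference day 3). With the lowest 50% of genes left out, 2190 genes were called for the beam difference day 1, since fewer genes were tested. With NFSa left out, an alternative chosen after the data were seen, they were Cxcr2 0.36 (the beam difference day 1), Cxcl3 0.10 and Cxcr2 -0.041 (the beam difference day 3).

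With the untreated arrays of both arms as reference, mean values that changed call or sign were Cxcl1 -0.085 (carbon ions day 1), Cxcl1 0.22 and Cxcr2 0.19 (30 Gy of gamma rays day 1), Cxcl3 0.25 (30 Gy of gamma rays day 3), Cxcl1 0.13 (50 Gy of gamma rays day 1), Cxcl1 -0.30 (the beam difference day 1), Cxcl1 -0.32, Cxcl3 0.11 and Cxcr2 -0.0084 (the beam difference day 3). The number of genes called was then 7431 (the beam difference 6 h), 8664 (the beam difference day 1) and 8755 (the beam difference day 3). The F test of Cxcr2 at 6 h after 30 Gy of gamma rays was then called at 8.31, with 7790 genes called. Single-tumour values that changed sign with that reference were Cxcl3 -0.60 and Cxcl5 -0.46 (NFSa carbon ions day 1), Cxcl2 -0.093 (NFSa carbon ions day 3), Cxcl3 0.34 and Cxcr2 0.37 (NR-S1 30 Gy of gamma rays day 1), Cxcl1 0.33, Cxcl3 0.58 and Cxcl5 0.076 (NFSa 30 Gy of gamma rays day 1), Cxcl5 -0.32 (SCCVII 30 Gy of gamma rays day 3), Cxcl2 0.52 and Cxcl3 0.88 (NFSa 30 Gy of gamma rays day 3), Cxcl1 0.39 and Cxcl2 0.38 (NFSa 50 Gy of gamma rays day 1), Cxcl3 0.31 (NR-S1 50 Gy of gamma rays day 3), Cxcl1 -0.17, Cxcl2 -0.60, Cxcl3 -0.48, Cxcl5 -0.38 and Cxcr2 -0.15 (NFSa beam difference 6 h), Cxcl1 -1.46, Cxcl3 -1.17 and Cxcl5 -0.53 (NFSa beam difference day 1), Cxcl1 -0.0072 (NR-S1 beam difference day 3), Cxcl1 -0.51 and Cxcl3 0.86 (SCCVII beam difference day 3), Cxcl1 -0.26, Cxcl2 -0.61 and Cxcl3 -0.35 (NFSa beam difference day 3), Cxcl1 -0.49 (#8520 beam difference day 3). The cause of these changes was not tested.

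Leaving out 1 array at a time changed the call of 11 main results, whose ranges were 0.26 to 0.39 for Cxcr2 in the beam difference 6 h, 0.26 to 0.44 for Cxcr2 in the beam difference day 3, 0.20 to 0.33 for Cxcr2 in the dose difference 6 h, 0.074 to 0.18 for Cxcl2 in the dose difference day 1, 0.079 to 0.25 for Cxcr2 in carbon ions day 3, 0.14 to 0.25 for Cxcl2 in 30 Gy of gamma rays day 1, -0.22 to -0.15 for Cxcr2 in 30 Gy of gamma rays day 3, -0.022 to 0.21 for Cxcr2 in day 1 minus 6 h after carbon ions, 0.12 to 0.27 for Cxcl2 in untreated NR-S1 minus NFSa, 0.30 to 0.47 for Cxcr2 in untreated NR-S1 minus SCCVII, -0.41 to -0.23 for Cxcr2 in untreated SCCVII minus NFSa. For Cxcr2 the arrays responsible were untreated carbon-arm SCCVII and #8520 and gamma-ray 6 h #8520 (the beam difference 6 h), untreated SCCVII of either arm, untreated carbon-arm #8520, carbon day 3 SCCVII and #8520 and gamma-ray day 3 #8520 (the beam difference day 3), 50 Gy 6 h NFSa and 30 Gy 6 h #8520 (the dose difference 6 h), untreated carbon-arm SCCVII and #8520 and carbon day 3 SCCVII (carbon ions day 3), gamma-ray day 3 #8520 (30 Gy of gamma rays day 3), carbon day 1 NR-S1 (day 1 minus 6 h), and untreated SCCVII or NFSa (the untreated pairs). For Cxcl2 they were 1 untreated and 1 day 1 array of each tumour (30 Gy of gamma rays day 1), 50 Gy day 1 SCCVII (the dose difference day 1) and untreated gamma-arm NFSa (NR-S1 minus NFSa). With the replicate number as a block no main call changed, and of the single-tumour values 2 did: Cxcl2 in SCCVII carbon ions day 3 (0.38) and Cxcl1 in #8520 dose difference day 1 (-0.30). Median centring, an offset before the log, the mean of all probes and an intensity trend with a robust prior changed no main call. Depth in counts does not apply, and Cxcr2, near the dim end in 21 of 44 groups, gave 8 of the 11 main results that changed call when 1 array was left out.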
